A study of Homo sapiens with 6 samples.

Results

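MHC class I molecules are surface receptors that show peptides from inside the cell to CD8 T cells and natural killer cells. Each molecule pairs a heavy chain from an HLA gene with beta-2 microglobulin, the invariant light chain made by B2M. The transporter made of TAP1 and TAP2 carries peptides into the endoplasmic reticulum, where tapasin, the product of TAPBP, holds the empty heavy chain at the transporter until a peptide is bound. NLRC5 is the class I transactivator, which has no DNA-binding domain of its own and works with RFX, CREB and NF-Y proteins at class I promoters, while interferon signalling reaches the same genes through factors such as IRF1.

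The genes described here were HLA-B, HLA-C, HLA-E, HLA-F, B2M, TAP1, TAP2, TAPBP and NLRC5, chosen by name because of these roles. They were 9 of the 33981 genes in the deposited count table, and all 9 were among the 19182 genes that passed the filter on low counts and were tested. Bulk mRNA was sequenced from THP-1, a human monocytic cell line from an acute myeloid leukemia, grown with fetal bovine serum in IMDM according to the sample labels and in RPMI according to the study's methods. All cells carried a lentiviral vector delivered on retronectin and were sorted for GFP 4 days after infection. In 3 samples the vector held a scrambled shRNA and in 3 samples an shRNA against NFIC, a transcription factor of the nuclear factor I family. The study's methods call the control a vector with GFP only, and the name in the sample labels is kept here. The comparison asks which transcript levels differ when NFIC is lowered in this line, and it rests on a single cell line and a single hairpin in these samples.

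NFIC itself was read first as a check of the labels. It had 911, 1019 and 904 counts in scrambled samples and 399, 518 and 493 in NFIC shRNA samples, and its log2 fold change was -0.99 (SE 0.072, adjusted p = 3.73e-09 from edgeR). Total counts lay between 20369543 and 24809720 per sample, so that 3 counts, taken as the smallest detectable amount, equal 0.121 to 0.147 CPM, the count scaled to the depth of its sample. This limit covers counting error only, since the reads carry no molecular identifiers and PCR copies of a molecule may be counted again. All 14 myeloid markers examined were in the table, and their summed level was 5569 to 5791 CPM in scrambled samples and 4314 to 4431 CPM in NFIC shRNA samples. Of the 14, 7 were called lower and 4 higher by edgeR, the latter LYZ, ITGAM, FCER1G and TYROBP, and 3 were not called. The granule protein genes ELANE and AZU1, singled out after their values were seen, carried the fall of the sum, and the other 12 summed to 2296 to 2477 CPM and 2439 to 2595 CPM. The 15 markers of T, B, NK, erythroid, epithelial and fibroblast cells that were in the table, of 20 listed, summed to 19.0 to 20.9 CPM and 8.54 to 10.1 CPM. CD3D, NCR1, HBA1, HBB, COL1A2 and DCN had 3 counts or fewer in every sample. The part of these marker levels in the results was not tested. In such bulk samples fewer cells of a type and less RNA per cell cannot be told apart. Nothing in the labels says that the 3 samples of a group came from separate cultures, so p-values measure the spread between these samples, which may be technical.

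Class I promoters are known for short elements that are read by the regulators named above, and 7 of the 9 genes had a RefSeq promoter window of 300 bases (GRCh38.p14, 250 bases before the annotated start and 50 after it). Windows for HLA-E and NLRC5 were not analysed here. The stretches below run 5′ to 3′ on the strand of the gene and are shown because they hold every match of 4 motifs in these windows. Capitals mark GAAANNGAAA and its shorter form GAANNGAAA, both written after the interferon-stimulated response element, CCAAT, the core bound by NF-Y, and TGACG, the core bound by CREB, each on either strand, so that CCAAT also reads ATTGG. Neighbouring matches can overlap, as the pairs in B2M, TAP1, TAP2 and TAPBP do.
HLA-B, chr6:31357221-31357344, minus strand: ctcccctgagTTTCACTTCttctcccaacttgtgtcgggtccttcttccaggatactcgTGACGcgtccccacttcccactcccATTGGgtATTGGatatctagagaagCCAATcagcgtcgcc
HLA-C, chr6:31272134-31272294, minus strand: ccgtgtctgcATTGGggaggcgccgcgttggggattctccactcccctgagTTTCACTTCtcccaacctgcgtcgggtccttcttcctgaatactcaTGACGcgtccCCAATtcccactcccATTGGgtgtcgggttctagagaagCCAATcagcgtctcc
HLA-F, chr6:29723268-29723391, plus strand: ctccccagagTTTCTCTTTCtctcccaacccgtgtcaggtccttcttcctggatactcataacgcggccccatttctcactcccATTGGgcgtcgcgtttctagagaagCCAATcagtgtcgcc
B2M, chr15:44711363-44711482, plus strand: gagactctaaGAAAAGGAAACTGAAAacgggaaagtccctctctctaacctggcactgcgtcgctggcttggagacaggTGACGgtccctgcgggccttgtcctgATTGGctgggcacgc
TAP1, chr6:32853813-32853954, minus strand: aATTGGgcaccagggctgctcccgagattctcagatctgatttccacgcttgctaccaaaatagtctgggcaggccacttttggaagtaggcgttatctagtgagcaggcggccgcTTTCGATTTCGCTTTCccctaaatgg
TAP2, chr6:32838760-32838812, minus strand: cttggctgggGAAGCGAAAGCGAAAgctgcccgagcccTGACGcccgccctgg
TAPBP, chr6:33314073-33314108, minus strand: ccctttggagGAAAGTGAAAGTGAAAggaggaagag

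HLA-B and HLA-C shared their layout, with the shorter interferon-type match farther upstream (bases -155 to -147 from the start in HLA-B and -151 to -143 in HLA-C), then TGACG, then CCAAT matches nearer the start. HLA-C held a further CCAAT match at -192 to -188. HLA-F had GAAANNGAAA at about that place (-156 to -147) and no TGACG. B2M held a pair of overlapping GAAANNGAAA matches, then TGACG and CCAAT, TAP1 and TAPBP also held an overlapping pair, and TAP2 held both interferon-type forms and TGACG. Of 35116 RefSeq windows of the same length, 3.57% held GAAANNGAAA, 7.66% GAANNGAAA, 34.6% CCAAT and 24.6% TGACG. The full palindrome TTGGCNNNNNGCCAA, bound by nuclear factor I proteins, was in 0.0285% of all windows and in none of these 7. This says only that these letters are absent from these windows. A single arm of it, TTGGC, which reads GCCAA on the other strand, was not counted. That arm stands in the stretches of HLA-B, HLA-C, HLA-F, B2M and TAP2 printed above. These matches are descriptions of the reference sequence and not mapped binding sites.

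**Figure D1:**
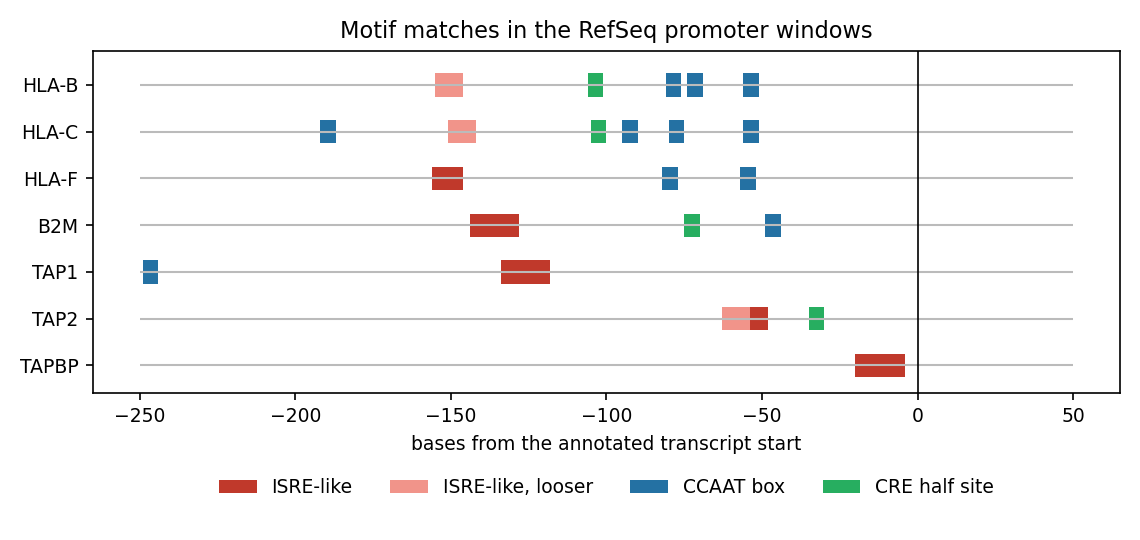
Motif matches in the RefSeq promoter windows of 7 genes. The horizontal axis is the distance in bases from the annotated transcript start, for the first start of TAP1, and coloured blocks mark each match on either strand. GAAANNGAAA (ISRE-like) stands in HLA-F, B2M, TAP1, TAP2 and TAPBP, and CCAAT in HLA-B, HLA-C, HLA-F, B2M and TAP1.

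The 9 genes did not move together. With NFIC shRNA, B2M, NLRC5, TAP1 and HLA-B rose, TAPBP, HLA-E and HLA-F fell, and HLA-C and TAP2 did not pass the test at an adjusted p of 0.05. Thus 4 of 9 were called higher and 3 of 9 lower. Over all genes tested 29.6% were called higher, 30.3% lower and 59.9% in either direction, so a called change was common in these samples. The CPM of the groups did not overlap for any of the 9 genes, against 65.2% of all genes tested. The median log2 fold change of the 9 genes was 0.096, and that of all genes tested was -0.011.

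**Figure D2:**
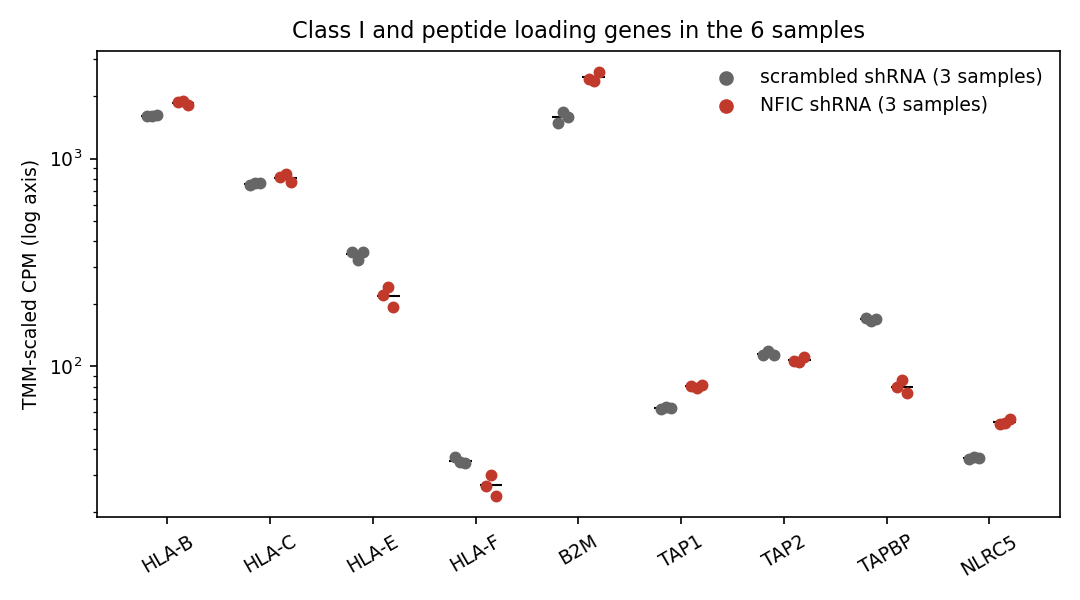
Level of each gene in the 6 samples, as CPM scaled by TMM factors on a log axis. Points are samples, grey for scrambled and red for NFIC shRNA, and short lines are group means. B2M in NFIC shRNA samples lies above all scrambled samples and TAPBP, HLA-E and HLA-F lie below them.

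Among the heavy chains, HLA-B encodes a classical, highly polymorphic chain and had the highest level of the 9 genes in FPKM, which rests on the deposited gene lengths. It lies on chromosome 6 of GRCh38 from 31353872 to 31367067 on the minus strand. HLA-B was at 1609, 1600.1 and 1622 CPM in scrambled samples and 1866, 1883 and 1816 CPM in NFIC shRNA samples. All NFIC shRNA samples were higher. The group means were 1610.4 ± 10.9 and 1855 ± 35.1 CPM (SD, n = 3), a 1.15-fold difference (log2 fold change 0.20, SE 0.046, adjusted p = 0.00106 from edgeR). Per length, HLA-B stood at 521 ± 4.61 FPKM (fragments scaled by gene length and depth) under scrambled shRNA and 607 ± 8.35 FPKM with NFIC shRNA, rank 94 and rank 60 of all genes in the table. The ratio of B2M to HLA-B was 0.492 in scrambled samples and 0.666 in NFIC shRNA samples by these lengths, and 1.45 and 1.97 by the exon bases of GENCODE release 44, a choice of length made after seeing the data, so the order of these genes depends on the length used. Of the exon bases of HLA-B in GENCODE release 44, 47.3% also belong to other genes of the table. The pseudogene DHFRP2 on the same strand covers 30.7%. The counting may have split or dropped reads there. That release gives HLA-B 4623 exon bases, against a deposited length of 3051 bp, so the overlap in the counted gene set may differ.

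HLA-C, the other classical chain of the set (chromosome 6, 31268749 to 31272130, minus strand), was at 746, 760.0 and 764 CPM under scrambled shRNA and 811, 841 and 775 CPM with NFIC shRNA. Its NFIC shRNA samples were also all higher, but by a margin close to the spread among them. The log2 fold change was 0.096 (SE 0.048, 95% interval -0.0057 to 0.198) and did not pass (adjusted p = 0.0956 from edgeR). Without replicate 3 of the NFIC shRNA samples, the sample nearest to the scrambled group, the value was 0.13 and passed (adjusted p = 0.0179 from edgeR). Of the 50-base words of HLA-C transcripts in the reference, 5.46% also occurred in other HLA genes, against 1.75% for HLA-B. These shares are for the reference haplotype, and the alleles of THP-1 were not used.

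HLA-E and HLA-F, the nonclassical chains, went the other way. HLA-E, which presents leader peptides of other class I chains to inhibitory receptors of NK cells (chromosome 6, 30489509 to 30494194, plus strand), was at 356, 327 and 356 CPM under scrambled shRNA and 222, 239.9 and 192 CPM with NFIC shRNA. Every NFIC shRNA sample was well below every scrambled sample. The mean fell from 346 ± 17.0 to 218 ± 23.9 CPM (SD, n = 3), a log2 fold change of -0.67 (SE 0.068, adjusted p = 4.48e-07 from edgeR), and HLA-E moved from rank 395 to rank 648 by FPKM. HLA-E shares 4.01% of its 50-base words with other HLA genes and none of its exon bases with another gene of the table.

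HLA-F is a low-abundance chain that can reach the surface without peptide (chromosome 6, 29722775 to 29738528, plus strand). HLA-F had 793, 849 and 734 counts under scrambled shRNA and 550, 700 and 548 counts with NFIC shRNA, or 36.7, 34.5 and 34.3 CPM against 26.7, 30.2 and 23.8 CPM. The groups did not overlap, and replicate 2 of the NFIC shRNA samples lay nearest to the scrambled samples. The log2 fold change was -0.39 (SE 0.083, adjusted p = 6.39e-04 from edgeR). On the opposite strand HLA-F-AS1 covers 12.4% of its exon bases and had a log2 fold change of 0.14 (adjusted p = 0.569 from edgeR). Whether the counting used strand is not given in the sources used here, and without strand the reads of such pairs cannot be told apart.

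As a sum, the heavy chains changed little while their make-up shifted. The CPM of HLA-B, HLA-C, HLA-E and HLA-F together was 2748, 2721 and 2777 under scrambled shRNA and 2926, 2994 and 2806 with NFIC shRNA, a 1.06-fold ratio of means with no overlap. By FPKM, HLA-B made up 55.2 ± 0.171% of the sum under scrambled shRNA and 60.1 ± 0.878% with NFIC shRNA (SD, n = 3). HLA-E went from 12.4 ± 0.514% to 7.36 ± 0.570% and HLA-F from 0.852 ± 0.0342% to 0.614 ± 0.0538%. The share of HLA-C was 31.6 ± 0.423% and 31.9 ± 0.270%, and its groups overlapped. The ratio of HLA-E to HLA-B was 0.225 ± 0.00983 in scrambled samples and 0.123 ± 0.0112 in NFIC shRNA samples. With the exon bases of GENCODE release 44 the share of HLA-B was 44.8% and 49.9%, that of HLA-E 15.3% and 9.25%, and that of HLA-C 38.9% and 40.1%, the last then without overlap. Shares and ratios per length are given as descriptions, without a test.

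B2M, the light chain shared by all these heavy chains, had the largest increase of the 9 genes. It lies on chromosome 15 from 44711358 to 44718851 on the plus strand, outside the HLA region. B2M was at 1484, 1677 and 1576 CPM under scrambled shRNA and 2404, 2364 and 2611 CPM under NFIC shRNA. The lowest NFIC shRNA sample was far above the highest scrambled sample. The mean rose from 1579 ± 96.5 to 2459 ± 133 CPM (SD, n = 3), or 1.56-fold (log2 fold change 0.64, SE 0.056, adjusted p = 3.79e-08 from edgeR). No 50-base word of B2M transcripts occurred in another annotated gene.

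Because B2M rose more than the heavy chains as a sum, their ratio changed in every sample. B2M per summed heavy chain FPKM was 0.256, 0.291 and 0.268 under scrambled shRNA and 0.389, 0.373 and 0.440 under NFIC shRNA. The groups were apart, with means of 0.272 ± 0.0181 and 0.401 ± 0.0351 (SD, n = 3), a 1.47-fold difference. The absolute ratio depends on gene length. The deposited table gives B2M 6079 bp, against 3121 exon bases in GENCODE release 44, and with the exon bases of that release for all 5 genes the ratio was 0.652 ± 0.0436 and 0.981 ± 0.0896, a 1.51-fold difference.

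**Figure D3:**
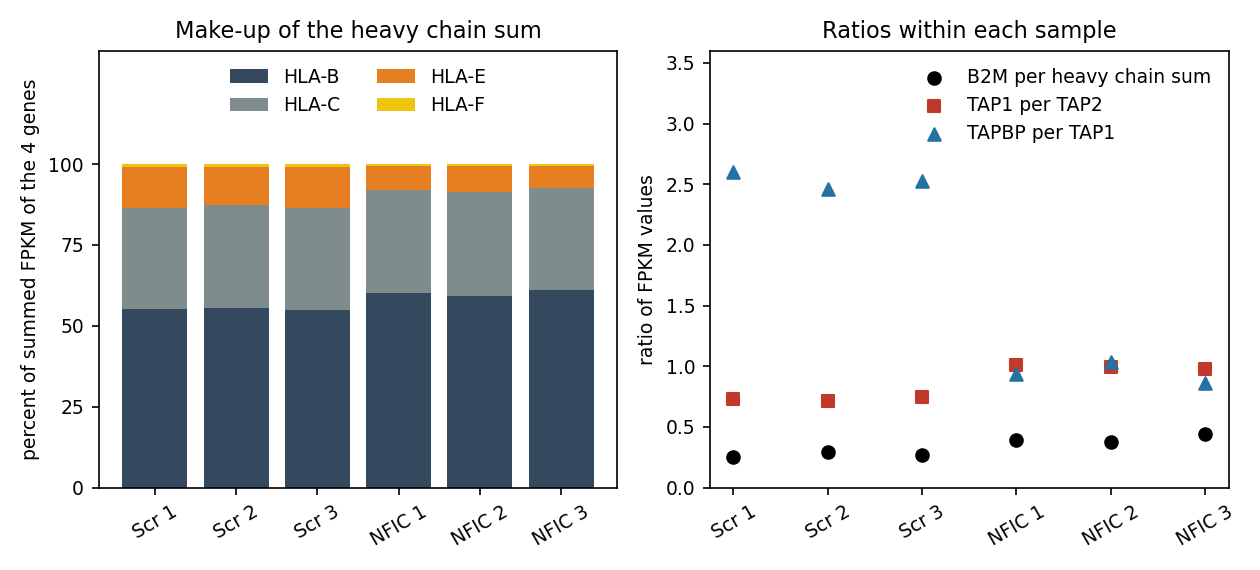
Left, percent of the summed FPKM of the 4 heavy chain genes taken by each gene, 1 bar per sample. Right, ratios of FPKM within each sample for B2M per heavy chain sum, TAP1 per TAP2 and TAPBP per TAP1; the last fell from a mean of 2.53 to 0.946 while the first rose from 0.272 to 0.401.

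The genes of the loading complex split. TAP1, a subunit of the peptide transporter (chromosome 6, 32845209 to 32853816, minus strand), was at 62.5, 63.9 and 63.2 CPM under scrambled shRNA and 80.2, 78.9 and 81.6 CPM under NFIC shRNA. The spread within either group was small against the distance between them. The log2 fold change was 0.35 (SE 0.053, adjusted p = 2.58e-05 from edgeR), a 1.27-fold rise. PSMB8-AS1, an antisense gene covering 14.2% of the exon bases of TAP1, rose with it (log2 fold change 0.52, adjusted p = 1.13e-06 from edgeR).

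TAP2, the partner subunit (chromosome 6, 32821833 to 32838739, minus strand), was at 114, 119 and 113 CPM under scrambled shRNA and 106, 105 and 111 CPM with NFIC shRNA. Its groups did not overlap but lay close. The log2 fold change was -0.10 (SE 0.051, 95% interval -0.208 to 0.0076) and did not pass (adjusted p = 0.10 from edgeR). It passed with upper-quartile normalization (-0.16, adjusted p = 0.0101), with protein-coding genes only (-0.11, adjusted p = 0.0457) and without replicate 3 of the NFIC shRNA samples (-0.12, adjusted p = 0.0485), all from edgeR. A readthrough gene on the same strand covers 19.5% of the exon bases of TAP2.

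TAPBP, which encodes tapasin (chromosome 6, 33299694 to 33314284, minus strand), had the largest change of the 9 genes. TAPBP was at 171, 166 and 168 CPM under scrambled shRNA and 79.3, 86.0 and 74.1 CPM with NFIC shRNA. The highest NFIC shRNA sample was far below the lowest scrambled sample. The mean fell from 168 ± 2.65 to 79.8 ± 5.99 CPM (SD, n = 3), a log2 fold change of -1.08 (SE 0.057, adjusted p = 1.03e-10 from edgeR). By FPKM its rank went from 1492 to 3565 of all genes in the table. Of the 50-base words of TAPBP transcripts in the reference, 21.7% also occurred in other annotated genes. TAPBP shares none of its exon bases with another gene of the table.

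By the deposited lengths, the order of the loading genes in scrambled samples was TAPBP at 32.9 ± 0.471 FPKM, TAP2 at 17.8 ± 0.471 FPKM and TAP1 at 13.0 ± 0.171 FPKM (SD, n = 3). With NFIC shRNA the levels were 15.8 ± 1.12 FPKM for TAPBP, 16.8 ± 0.600 FPKM for TAP2 and 16.7 ± 0.366 FPKM for TAP1, and these did not differ beyond their spread. The ratio of TAP1 to TAP2 was 0.729 ± 0.0137 under scrambled shRNA and 0.993 ± 0.0155 under NFIC shRNA. The ratio of TAPBP to TAP1 was 2.60, 2.46 and 2.53 under scrambled shRNA and 0.939, 1.04 and 0.863 with NFIC shRNA, so that all NFIC shRNA samples were far below all scrambled samples. With the exon bases of GENCODE release 44, TAP1 was above TAP2 in both groups, at ratios of 1.201 ± 0.0226 and 1.64 ± 0.0255, and TAPBP to TAP1 was 1.90 ± 0.0511 and 0.709 ± 0.0652 (SD, n = 3), so the order and the near-equal levels depend on the length used. The fold between groups is the same with either length, 1.36 for TAP1 to TAP2 and 0.374 for TAPBP to TAP1.

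NLRC5, the transactivator of class I genes (chromosome 16, 56989485 to 57083531, plus strand), had the lowest level per length of the 9 genes and rose. NLRC5 had 773, 905 and 777 counts under scrambled shRNA and 1094, 1238 and 1290 counts with NFIC shRNA, or 35.7, 36.8 and 36.3 CPM against 53.1, 53.4 and 55.9 CPM. The groups were tight and far apart. The log2 fold change was 0.58 (SE 0.061, adjusted p = 3.11e-07 from edgeR), and the level per length went from 2.89 ± 0.0470 to 4.36 ± 0.155 FPKM (SD, n = 3). Like B2M, NLRC5 shares no 50-base word with another annotated gene.

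**Figure D4:**
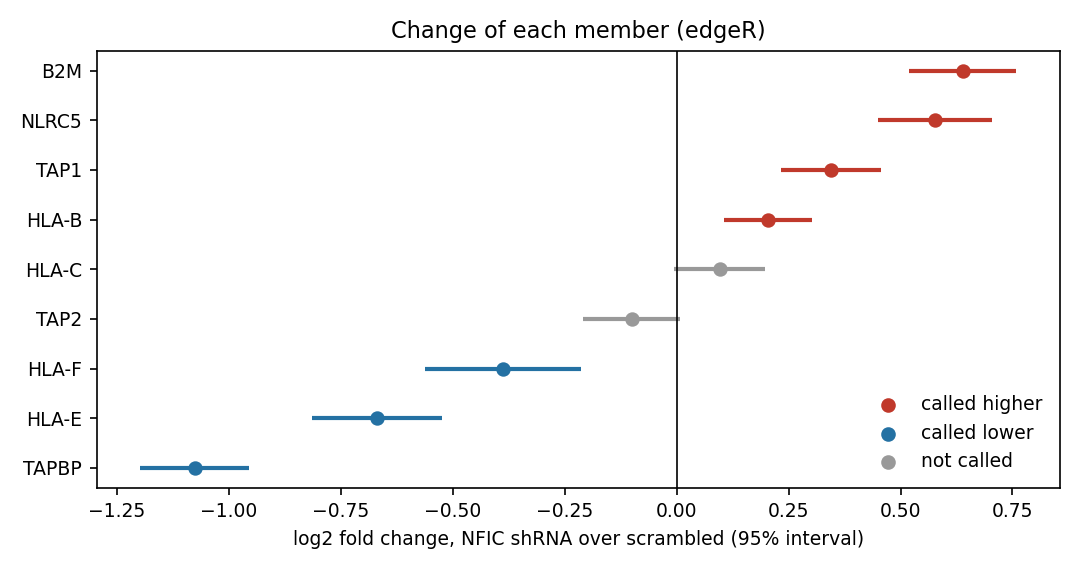
Log2 fold change of NFIC shRNA over scrambled shRNA for each of the 9 genes, from edgeR, with 95% intervals as bars. B2M, NLRC5, TAP1 and HLA-B lie above 0, TAPBP, HLA-E and HLA-F below it, and the intervals of HLA-C and TAP2 include 0.

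Set beside the sequences, GAAANNGAAA matches stood in genes of both directions. The genes with this motif had log2 fold changes of 0.64 (B2M), 0.35 (TAP1), -0.10 (TAP2), -0.39 (HLA-F) and -1.08 (TAPBP). Among the genes with a TGACG match, B2M and HLA-B were called higher and HLA-C and TAP2 were not called.

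Other class I chains and loading factors, from a list of 12 genes that were all tested, were also mixed. In this list 4 were called higher and 5 lower, against 29.6% and 30.3% of all genes tested. The median log2 fold change was 0.0020. ERAP1, the aminopeptidase that trims peptides in the endoplasmic reticulum, fell by 0.82 on the log2 scale (SE 0.050, adjusted p = 4.46e-10 from edgeR), with 3759, 4425 and 3789 counts in scrambled samples and 2012, 2297 and 2401 in NFIC shRNA samples. TAPBPL, a peptide editor related to tapasin, had a log2 fold change of -0.28 (adjusted p = 8.12e-03 from edgeR). CALR and HLA-G were also called lower, at -0.32 and -0.29. PDIA3, the disulfide isomerase bound to tapasin, rose by 0.38 (adjusted p = 1.24e-05 from edgeR), UGGT1, which returns poorly loaded chains to calreticulin, by 0.48 and LNPEP, an aminopeptidase of endosomes, by 0.26. HSPA5 rose by 0.16, and CANX, ERAP2 and HM13 were not called.

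The immunoproteasome cuts many of the peptides that TAP carries, and most of its genes rose. Of 6 genes tested, edgeR called 5 higher and 0 lower, against 29.6% and 30.3% of all genes tested. Every one of the 6 had a log2 fold change above 0, with a median of 0.43, and DESeq2 called 0 lower. PSME2 and PSME1, subunits of the PA28 activator, had log2 fold changes of 0.68 (SE 0.069, adjusted p = 3.25e-07 from edgeR) and 0.46 (adjusted p = 2.50e-06), and POMP, an assembly factor of proteasomes, one of 0.62 (adjusted p = 1.78e-07). The counts of PSME2 were 1837, 2302 and 1747 under scrambled shRNA and 2760, 2978 and 3552 with NFIC shRNA, without overlap. The catalytic subunits were at 0.40 for PSMB9, 0.21 for PSMB10 and 0.11 for PSMB8, of which PSMB8 did not pass (adjusted p = 0.0866 from edgeR). PSMB9 and PSMB8 lie beside TAP1 and TAP2 in the class II region.

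Among 20 regulators of class I transcription 8 were called higher and 8 lower, against 29.6% and 30.3% of all genes tested. Their median log2 fold change was 0.069. IRF1, a factor that binds interferon-type elements, had 615, 694 and 628 counts under scrambled shRNA and 1302, 1414 and 1418 with NFIC shRNA, a log2 fold change of 1.11 (SE 0.061, adjusted p = 1.44e-10 from edgeR). The NFIC shRNA samples lay far above the scrambled ones. The kinase JAK2 was at 0.93 (adjusted p = 1.04e-09), whereas JAK1, the kinase that pairs with JAK2 at the interferon-gamma receptor, was at -0.83 (adjusted p = 3.91e-09), both from edgeR. The partners of NLRC5 at class I promoters were lower in several cases but not in all. CREB1, ATF1 and NFYB, at log2 fold changes of 0.038, 0.14 and 0.10, were not called. NFYC, a subunit of NF-Y, fell by 0.99 on the log2 scale (SE 0.047, adjusted p = 3.23e-11 from edgeR), from 6979, 7882 and 7040 counts to 3303, 3878 and 3769. The RFX subunits RFXANK and RFXAP were at -0.88 and -0.97, and RFX5 at -0.14 (adjusted p = 0.0282 from edgeR). The call for RFX5 was lost with DESeq2 (adjusted p = 0.0931).

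**Figure D5:**
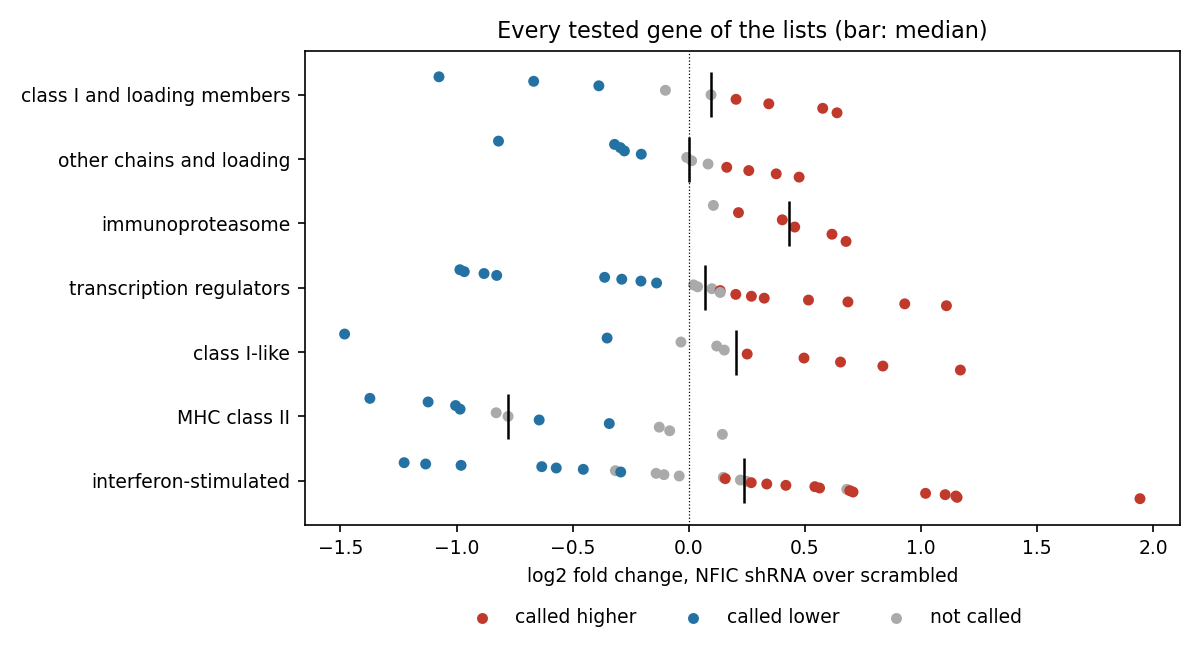
Log2 fold change of NFIC shRNA over scrambled shRNA for every tested gene of 7 lists. Points are genes, red for called higher, blue for called lower and grey for not called, with heights offset for legibility, and vertical bars are list medians. The immunoproteasome median is 0.43 and the class II median is -0.78.

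Class I-like genes encode relatives of the heavy chain with other partners. Of 16 listed, 14 were in the table and 10 were tested, with a median of 0.20. Among these 10, 5 were called higher and 2 lower, against 29.6% and 30.3% of all genes tested. ULBP2 and MICB, stress ligands of the NKG2D receptor, had log2 fold changes of 1.17 (adjusted p = 2.85e-06 from edgeR) and 0.84 (adjusted p = 5.49e-07), and CD1D, which presents lipids, 0.65 (adjusted p = 2.86e-07). ULBP2 rested on 92, 88 and 65 counts under scrambled shRNA and 178, 200 and 167 with NFIC shRNA. FCGRT, the neonatal Fc receptor, which also pairs with B2M, was at -0.35 (adjusted p = 9.27e-04 from edgeR), and PROCR, the protein C receptor, at -1.48 with at most 88 counts in a sample.

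MHC class II genes, which depend on the same RFX and NF-Y proteins but on CIITA in place of NLRC5, were not called higher in any case. Of 13 genes 11 were tested with edgeR, 0 higher and 6 lower, against 29.6% and 30.3% of all genes tested. The median log2 fold change was -0.78, the value of HLA-DQA1, which had 15 to 56 counts in a sample and was not called. HLA-DRB1 (-0.13) and HLA-DQB1 (-0.082) were also not called. At an unadjusted p under 0.05, or with DESeq2, the count higher was also 0. CD74, the invariant chain of class II, was at -1.12 (SE 0.061, adjusted p = 1.50e-10 from edgeR), with 8860, 10859 and 8937 counts in scrambled samples and 4010, 4912 and 4069 in NFIC shRNA samples. HLA-DRA, the DR alpha chain, was at -1.0 and HLA-DMA, which helps to exchange class II peptides, at -1.37. CIITA was not called (log2 fold change 0.15, SE 0.077, adjusted p = 0.114 from edgeR).

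Of 30 interferon-stimulated genes 28 were tested, 13 higher and 7 lower, against 29.6% and 30.3% of all genes tested. Their median log2 fold change was 0.24. IFIT3, an antiviral protein, was at 1.16 (adjusted p = 3.64e-07 from edgeR), and IRF9 and STAT2, which act together in type I interferon signalling, were at 1.10 (adjusted p = 2.89e-09) and 0.56 (adjusted p = 5.35e-07). In the other direction BST2, the virus-tethering protein, was at -0.98 (adjusted p = 7.39e-10 from edgeR), MX2 at -0.63 and IFITM1 at -1.23. These lists were described by counts and medians only, and no list was tested against the rest.

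Similarity of profiles was measured as the root mean square distance between centred log2 CPM over the 6 samples, among 12259 protein-coding genes with a mean log2 CPM of at least 1. The profiles nearest to NLRC5 were those of SUGP1 (0.0114), PDXDC1 (0.0126) and RAB31 (0.0147). Nearest to B2M were PECAM1 (0.0147), VAT1L (0.0217) and DCAF6 (0.0234). B2M itself was number 279 from NLRC5, at a distance of 0.0550, TAP1 number 1515 and HLA-B number 3390. With 6 samples in 2 groups this distance reflects mainly the size of the group difference.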

How the data were processed

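Per the labels and the study's methods, reads were trimmed with Trim Galore, mapped to GRCh38 with STAR and assigned with featureCounts to the Ensembl release 96 gene set; versions, strand setting and treatment of duplicates are not given in the sources used here. The authors deposited 1 table with the count per gene and sample, a normalized signal (the count over a DESeq2 size factor, 0.926 to 1.11), FPKM made from that signal and the gene length, and the mean signal. Other deposited columns hold the authors' own DESeq2 comparison (log2 fold change, its error, Wald score, p-value) and were not used.

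edgeR 4.0.16 in R 4.3.3 (TMM, filter on low counts, robust quasi-likelihood test, no block) was fitted to the counts of 3 against 3 samples, with Benjamini-Hochberg adjustment over 19182 genes and a threshold of 0.05. An SE is the size of the log2 fold change over the square root of F. Log2 CPM for profiles had a prior count of 2. An exact permutation test of 1 gene cannot go below p = 0.1 here. Replicates of a group differed by more than sampling noise (chi-square per degree of freedom 1.99 to 7.91). Positions came from GENCODE release 44 by gene identifier. The fit was also run on simulated counts in which few genes were changed, equally in both directions. Most genes were called in the real data, so that run cannot show how the fit behaves here.

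The genes and lists were chosen with earlier results of these data known. Named were NFIC, the 9 genes, IRF1, RFX5, CIITA, up to 3 genes per list and direction by smallest adjusted p, and the 3 profiles nearest to NLRC5 and to B2M. CALR, HLA-G, HSPA5, CANX, ERAP2, HM13, PSMB8, PSMB9, PSMB10, RFXAP, CREB1, ATF1, NFYB, the overlapping genes and the cell type markers were named after their values were seen. So were HLA-DQA1, HLA-DRB1 and HLA-DQB1. Some genes chosen by the rule are not reported here, but stay in the list counts and medians. Alternatives were DESeq2 size factors, upper-quartile and total-count scaling, DESeq2 1.42.0, no low-count filter or at least 10 counts in every sample, a replicate block, a stricter threshold of 0.01 on the adjusted p, a restriction to protein-coding genes, and each sample left out. GENCODE exon bases in place of the deposited lengths were added after the data were seen.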

Additional observations from a re-analysis of the deposited data

How the results depend on the processing

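Across 15 alternatives no reported fold change of the 9 genes changed sign, and the calls of HLA-B (0.15 to 0.22), HLA-E (-0.74 to -0.58), HLA-F (-0.48 to -0.30), B2M (0.58 to 0.68), TAP1 (0.29 to 0.36), TAPBP (-1.13 to -1.02) and NLRC5 (0.52 to 0.60) were kept in each. HLA-C passed only without replicate 3 of the NFIC shRNA samples (0.13, adjusted p = 0.0179 from edgeR), and over fits without 1 sample it ranged from 0.071 to 0.131. TAP2 passed with upper-quartile normalization (-0.16), protein-coding genes only (-0.11) and without that sample (-0.12), and ranged from -0.121 to -0.082 without 1 sample. The count of other chains and loading genes called lower was 3 at an adjusted p under 0.01, and 3 to 5 without 1 sample, the 3 being without replicate 3 of the NFIC shRNA samples. The cause was not tested. RFX5, -0.14 in the report, lost its call with DESeq2 (-0.12), at an adjusted p under 0.01 and without 1 of 3 samples, namely scrambled replicate 1, scrambled replicate 2 or NFIC shRNA replicate 1. The number of genes called lay between 9092 and 11783. Upper-quartile normalization moved the median of all genes from -0.011 to -0.068 and the share of calls that were higher from 49.4% to 43.2%. A fit that took the replicate numbers of the labels as a block called 10983 genes, 4 of the 9 genes higher and 3 lower, and no call for the 9 genes changed. Same-numbered samples deviated from their group means with correlations of 0.0563, -0.0862 and -0.0446 across genes. The sample titles number the scrambled samples differently. Scrambled replicate 2 and NFIC shRNA replicate 3, which share a number in the titles, had a correlation of 0.145. With 3 samples per group such correlations cannot show whether samples were paired. The heavy chain sum ratio was 1.05 to 1.08. Levels and ratios per length moved with GENCODE exon bases in place of the deposited lengths, an alternative chosen after seeing the data, which turned the order of B2M and HLA-B and of TAP1 and TAP2 in scrambled samples (ratios 0.492 to 1.45 and 0.729 to 1.201) but kept the direction between groups, and alleles of THP-1 that differ from the reference may lose HLA reads in mapping, which was not tested.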
